A study of Mus musculus with 8 samples.

Results

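Rpl3l and 3 other ribosomal protein paralogues were followed with their partner genes in hearts of male and female mice. The 8 genes are Rpl3 and Rpl3l, Rpl22 and Rpl22l1, Rps27 and Rps27l, and Rpl7 and Rpl7l1. They were taken by gene name from a table of 17911 genes, of which they are 8, and all had a row there. The hearts came from 4 male and 4 female wild-type mice, genotype C57Bl6/J wt, which had received no treatment named in the labels and carried 1 batch label. The age was given as 4 weeks in the series design and as up to 6 weeks in the extraction notes. Whole single hearts were used, and per the labels small RNA was isolated with a miRNA kit, while the molecule is given as total RNA; what this did to the levels was not tested. In bulk RNA fewer cells of a type and less RNA per cell cannot be told apart. Levels below are the deposited read counts, divided by the authors by 1 size factor per heart, and are called normalized read counts.

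A ribosome is built from a small and a large subunit, and most of its proteins come from a single expressed gene. A few have a second gene whose protein may take the same place. Rpl3l is the best known of these in muscle: Rpl3 is the general large subunit protein, which reaches towards the peptidyl transferase centre, and Rpl3l is made in heart and skeletal muscle. Rpl22 binds RNA and Rpl22l1 is its close relative, also of the large subunit. Rps27 and Rps27l are zinc finger proteins of the small subunit, and Rps27l is known as a target of p53. Rpl7 is a large subunit protein, while Rpl7l1 is associated with assembly of the large subunit in the nucleolus.

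The sequences show how alike the partners are, which bears on how well short reads can be told apart. Coding sequences were taken from the principal coding transcript of each gene in the GENCODE vM21 annotation of mm10, and aligned pair by pair. Rpl3 and Rpl3l were identical at 894 of 1206 aligned bases (74.1%), with a longest identical run of 22 bases. Rpl22 and Rpl22l1 were identical at 70.2%, Rps27 and Rps27l at 76.2% and Rpl7 and Rpl7l1 at 56.0% of aligned bases. Rps27 and Rps27l, which are of equal coding length and align without a gap, are shown whole, since they are the most alike pair. Capitals mark the 60 bases at which they differ.

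Rps27: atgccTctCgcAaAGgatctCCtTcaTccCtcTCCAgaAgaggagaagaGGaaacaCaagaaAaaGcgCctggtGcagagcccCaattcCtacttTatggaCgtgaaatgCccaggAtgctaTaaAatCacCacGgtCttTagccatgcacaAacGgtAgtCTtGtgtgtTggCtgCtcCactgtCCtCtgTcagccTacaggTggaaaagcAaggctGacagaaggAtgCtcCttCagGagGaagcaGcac
Rps27l: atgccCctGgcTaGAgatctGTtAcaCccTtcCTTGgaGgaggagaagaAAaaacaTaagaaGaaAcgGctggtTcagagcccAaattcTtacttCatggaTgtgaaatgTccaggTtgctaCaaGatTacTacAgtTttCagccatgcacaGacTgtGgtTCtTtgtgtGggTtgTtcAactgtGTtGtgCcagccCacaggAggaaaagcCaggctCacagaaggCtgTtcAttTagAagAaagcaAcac

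The other pairs are shown by the stretch of 90 coding bases in which they are most alike, with differing bases in capitals. The Rpl3 stretch is coding bases 685 to 774 in both genes, and 16 bases differ within it.

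Rpl3: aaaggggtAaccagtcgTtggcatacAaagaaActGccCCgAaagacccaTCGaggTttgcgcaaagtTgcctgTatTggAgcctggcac
Rpl3l: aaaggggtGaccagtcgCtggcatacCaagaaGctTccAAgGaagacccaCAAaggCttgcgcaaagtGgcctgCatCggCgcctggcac

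In the Rpl22 pair 17 bases differ within the stretch shown, and in the Rpl7 pair 27 bases differ.

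Rpl22: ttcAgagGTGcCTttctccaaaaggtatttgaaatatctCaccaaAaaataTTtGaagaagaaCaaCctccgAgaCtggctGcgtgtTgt
Rpl22l1: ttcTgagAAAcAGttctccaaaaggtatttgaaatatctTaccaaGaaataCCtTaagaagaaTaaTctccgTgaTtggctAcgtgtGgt
Rpl7: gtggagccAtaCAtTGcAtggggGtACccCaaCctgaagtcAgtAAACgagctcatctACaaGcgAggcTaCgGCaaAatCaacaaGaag
Rpl7l1: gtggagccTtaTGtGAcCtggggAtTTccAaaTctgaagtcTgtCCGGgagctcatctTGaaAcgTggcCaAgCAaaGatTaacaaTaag

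No stretch of 50 bases was shared between the principal transcripts of a gene and any transcript of its own partner. Shared sequence lay elsewhere, in pseudogenes and retrocopies. Of the 50-base windows of the Rpl3 transcript, 85.6% also occurred in annotated transcripts of other genes. The share was 98.6% for Rps27, 65.6% for Rpl22l1, 53.3% for Rpl7, 22.4% for Rps27l, 9.19% for Rpl7l1 and 5.19% for Rpl22. It was 0% for Rpl3l, with 0 of 1326 windows. How reads that match several genes were counted is not given in the sources used here, and its effect on the levels was not tested. The rows named as pseudogenes or retrocopies of the members held few reads. Rps27rt, a retrocopy holding nearly all of the Rps27 windows, had a normalized read count of 91.4 ± 9.20 (SD, n = 8), which is 1.19% of that of Rps27. Rpl3-ps1 had 77.2 ± 12.4 (0.781% of Rpl3), Rpl3-ps2 15.3 ± 5.06 and Rpl7-ps7 15.5 ± 2.59.

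Rpl3l was the member with most reads in its pair, and it was the only paralogue of the 4 to outnumber its partner in these hearts. Rpl3l (ENSMUSG00000002500, chromosome 17, 24727820 to 24736143, plus strand, mm10) had normalized read counts of 14836, 14930, 16929 and 14535 in female replicates 1 to 4. The male replicates 1, 3, 4 and 5 had 14689, 15617, 15214 and 17175. Female replicate 3 and male replicate 5 stood above the other 6 hearts, and the sexes overlapped. Rpl3 (ENSMUSG00000060036, chromosome 15, 80077791 to 80091868, minus strand) had 10185, 10119, 9927 and 10232 in females and 9877, 9358, 9748 and 9605 in males. All 4 female values lay above all 4 male values, narrowly so between female replicate 3 and male replicate 1.

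Rpl22 and Rpl22l1 stood far apart in reads. Rpl22 (ENSMUSG00000028936, chromosome 4, 152325742 to 152334071, plus strand) had 7266, 7423, 7725 and 7523 in females and 7620, 7620, 7987 and 7912 in males. Rpl22l1 (ENSMUSG00000039221, chromosome 3, 28805436 to 28807424, plus strand) had 1062, 1034, 1147 and 928 in females and 1036, 1044, 1023 and 1103 in males. Female hearts included both the highest and the lowest Rpl22l1 value, replicates 3 and 4. An antisense gene, Gm33051, overlaps 159 exonic bases of Rpl22l1. Whether counting used strand is unknown here, so reads from those bases cannot be assigned to 1 of the genes with certainty.

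The small subunit pair showed a steadier partner and a more variable paralogue. Rps27 (ENSMUSG00000090733, chromosome 3, 90212522 to 90213651, minus strand) had 7090, 7770, 8024 and 7864 in females and 7457, 7701, 7775 and 7760 in males. Rps27l (ENSMUSG00000036781, chromosome 9, 66946086 to 66949516, plus strand) had 2090, 2083, 2281 and 2153 in females and 2153, 2435, 2476 and 2226 in males. Male replicates 3 and 4 were the highest in Rps27l, and the ranges of the sexes overlapped.

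Rpl7 had the most reads of all 8 members, just above Rpl3l. Rpl7 (ENSMUSG00000043716, chromosome 1, 16101295 to 16104662, minus strand) had 15603, 15922, 16156 and 16130 in females and 15565, 15289, 16265 and 16018 in males. Rpl7l1 (ENSMUSG00000063888, chromosome 17, 46773907 to 46782672, minus strand) had 2800, 2614, 2929 and 2772 in females and 2873, 2903, 2889 and 2802 in males. The 4 male Rpl7l1 values fell inside the female range.

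**Figure D1:**
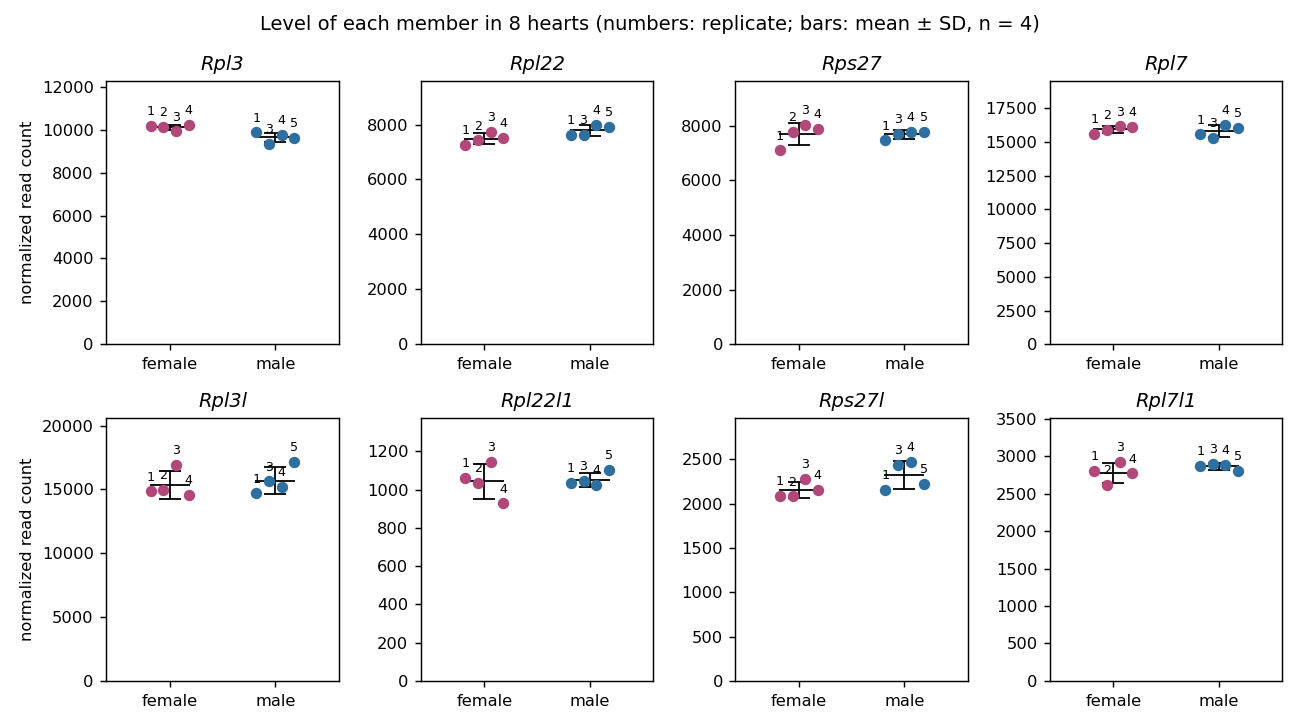
Normalized read count (vertical axis, from 0) of each member in 4 female and 4 male hearts, with replicate numbers beside the points and bars for the mean ± SD. Within each panel the points of a sex lie close together, and Rpl3l is raised in female replicate 3 (16929) and male replicate 5 (17175).

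The share of the paralogue in the reads of its pair was compared next, because a share within 1 heart does not depend on how the libraries were scaled. Rpl3l made up 61.0% ± 2.00 of the Rpl3 and Rpl3l reads over the 8 hearts (SD, n = 8). Single values were 59.3%, 59.6%, 63.0% and 58.7% in female replicates 1 to 4 and 59.8%, 62.5%, 60.9% and 64.1% in male replicates 1, 3, 4 and 5. The reads behind 1 share were 20333 to 29287, and the exact (Clopper-Pearson) 95% interval was at most 0.679 percentage points to either side. These intervals cover counting error only, and not how reads that match several genes were counted. Over the hearts the Rpl3l share ran from 58.7% in female replicate 4 to 64.1% in male replicate 5.

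Paralogue shares in the other 3 pairs were far lower. Rps27l made up 22.8%, 21.1%, 22.1% and 21.5% of its pair in females and 22.4%, 24.0%, 24.2% and 22.3% in males, a mean of 22.6% ± 1.08 (SD, n = 8). Rpl7l1 made up 15.2%, 14.1%, 15.3% and 14.7% in females and 15.6%, 16.0%, 15.1% and 14.9% in males, a mean of 15.1% ± 0.569. Rpl22l1 made up 12.8%, 12.2%, 12.9% and 11.0% in females and 12.0%, 12.0%, 11.4% and 12.2% in males, a mean of 12.1% ± 0.65. The widest exact 95% intervals reached 0.903, 0.562 and 0.75 percentage points to either side in that order. In each of these pairs the largest share of any heart remained below the smallest Rpl3l share.

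**Figure D2:**
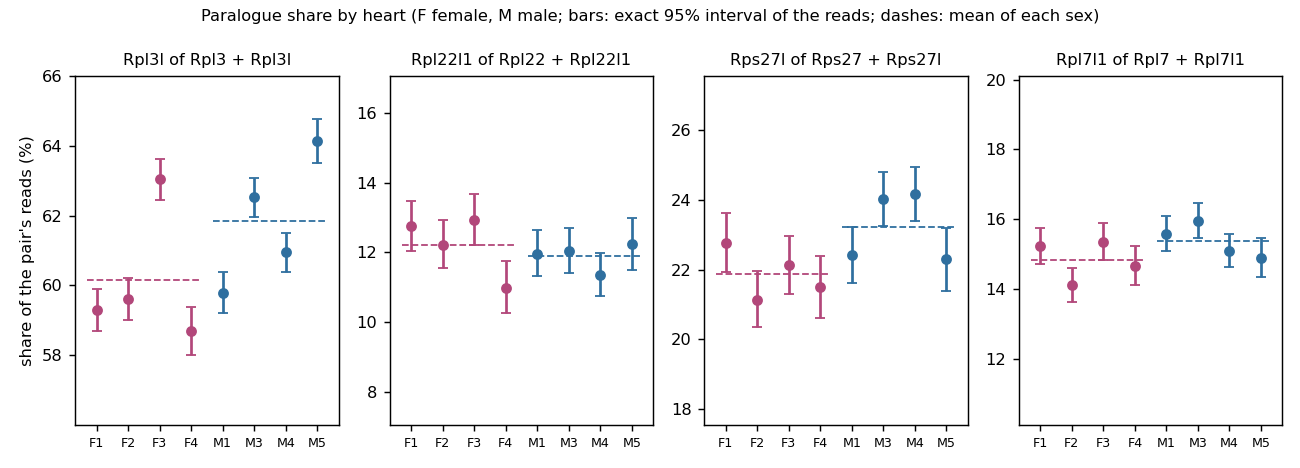
Share of the paralogue in the reads of its pair, in percent, by heart (F female, M male, with replicate number), with exact 95% intervals of the reads as bars and the mean of each sex as a dashed line. Each panel spans 10 percentage points; Rpl3l runs from 58.7% to 64.1%, and female and male hearts overlap in all 4 pairs.

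The difference between female and male shares did not pass its test in any of the 4 pairs. Each difference was tested by exact permutation of the 70 ways to assign hearts to sexes, two-sided, where p cannot go below 0.0286. Female hearts had an Rpl3l share of 60.2% ± 1.96 and male hearts one of 61.9% ± 1.89, which differ by -1.70 percentage points (SE 1.36, n = 4 each, exact permutation p = 0.257). For Rps27l it was 21.9% ± 0.718 against 23.2% ± 1.01, a difference of -1.34 points (SE 0.618, exact permutation p = 0.114). The Rpl7l1 difference was -0.544 points (SE 0.373, exact permutation p = 0.229) and that of Rpl22l1 was 0.321 points (SE 0.479, exact permutation p = 0.571). Adjusted over the 4 pairs compared, the exact permutation p was 0.343 for Rpl3l, Rps27l and Rpl7l1 and 0.571 for Rpl22l1.

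Reads of genes of unequal length are not comparable as transcripts, so the shares were also taken per length. Rpl3 and Rpl3l are nearly equal in coding length, 1209 and 1221 bases, and in principal transcript length, 1351 and 1375 bases. The Rpl3l share was 60.8% ± 2.00 per coding length and 60.6% ± 2.01 per principal transcript length (SD, n = 8). Per length of all annotated exons merged, 3175 bases for Rpl3 and 1643 for Rpl3l, it was 75.1% ± 1.56. The Rpl22l1 share depended most on the length used: 12.6% ± 0.674 per coding length, 16.7% ± 0.854 per merged exons and 33.7% ± 1.38 per principal transcript. Its principal transcript has 552 bases and that of Rpl22 has 2051. Rps27l ran from 16.8% ± 0.863 (principal transcript) to 27.1% ± 1.22 (merged exons), and Rpl7l1 from 7.36% ± 0.302 (principal transcript) to 16.3% ± 0.606 (coding length). Under all 4 ways of counting, Rpl3l was the only 1 of the 4 paralogues with a mean share above that of its partner. All 4 ways start from the same assigned reads, so they do not test how reads matching several genes were counted. Of the transcript windows above, 85.6% of those of Rpl3 but 0% of those of Rpl3l also occurred in other genes. The counting of such reads could therefore bear on Rpl3 more than on Rpl3l, and its effect on the Rpl3l share was not tested. Which transcript forms these hearts used was not measured here.

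**Figure D3:**
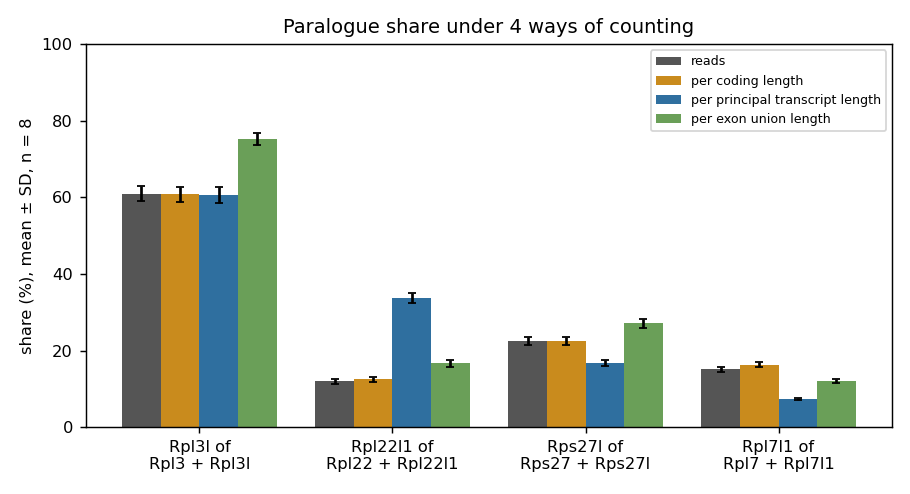
Mean share of each paralogue in its pair, in percent (bars from 0, error bars SD, n = 8), from reads and per coding, principal transcript and merged exon length. The Rpl3l bars lie between 60.6% and 75.1%, and those of Rpl22l1 between 12.1% and 33.7%.

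The order of the members' levels per length also depended on the length used. Per kilobase of principal transcript, Rps27 was highest with 22261 ± 830 normalized reads (SD, n = 8), followed by Rpl7 (13645 ± 296), Rpl3l (11266 ± 743) and Rpl3 (7314 ± 224). Below them came Rps27l (4484 ± 301), Rpl22 (3722 ± 117), Rpl22l1 (1897 ± 115) and Rpl7l1 (1083 ± 38.8). No neighbours in that order overlapped over the 8 hearts. Per kilobase of coding sequence Rps27 was again first, and Rpl22 and Rpl7 followed with overlapping ranges (19881 ± 625 and 19591 ± 426). Rpl3l came next (12687 ± 836), above Rps27l (8878 ± 596) and Rpl3 (8173 ± 250), whose ranges overlapped. Per kilobase of merged exons Rpl3l was first (9428 ± 621).

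None of the 8 members passed the test between the sexes, in a comparison in which 1.16% of all 17911 genes were called in either direction (0.475% higher and 0.687% lower in females). The test was limma on log2(normalized read count + 1), with Benjamini-Hochberg adjustment over all genes and a threshold of 0.05. edgeR, DESeq2 and limma-voom on the recovered reads also called 0 of the 8, and 1 member had an unadjusted limma p under 0.05, where 16.0% of all genes did. That member was Rpl3, whose mean was 10116 ± 134 in the 4 female hearts and 9647 ± 222 in the 4 male hearts (SD). Its log2 difference, female minus male, was 0.07 (SE 0.03, limma adjusted p = 0.271), or 4.87% with a 95% interval of 0.404% to 9.53%. Rpl3 was also the only member whose sexes did not overlap; 9.35% of all genes had no overlap, and 4.52% had none and were higher in females.

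Differences of the other members had intervals that included 0. Rps27l had the largest in size, with means of 2152 ± 91.5 in females and 2323 ± 157 in males, a log2 difference of -0.11 (SE 0.05, limma adjusted p = 0.313). As a percentage this was -7.26% (95% interval -14.0% to 0.0125%). Rpl3l had a log2 difference of -0.03 (SE 0.06, limma adjusted p = 0.827), with a 95% interval of -10.5% to 6.58%. Differences larger than that in either direction lie outside its interval. Rpl22 had -0.06, Rpl7l1 -0.05, Rpl22l1 -0.02, Rpl7 0.02 and Rps27 0.0012, with limma adjusted p between 0.405 and 0.993. In all, 5 of the 8 differences were negative and 3 positive, with a median of -0.02, against 0.0023 over all genes. In the authors' deposited table the adjusted p ran from 0.207 (Rpl3) to 0.988 (Rps27) over the 8 members.

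**Figure D4:**
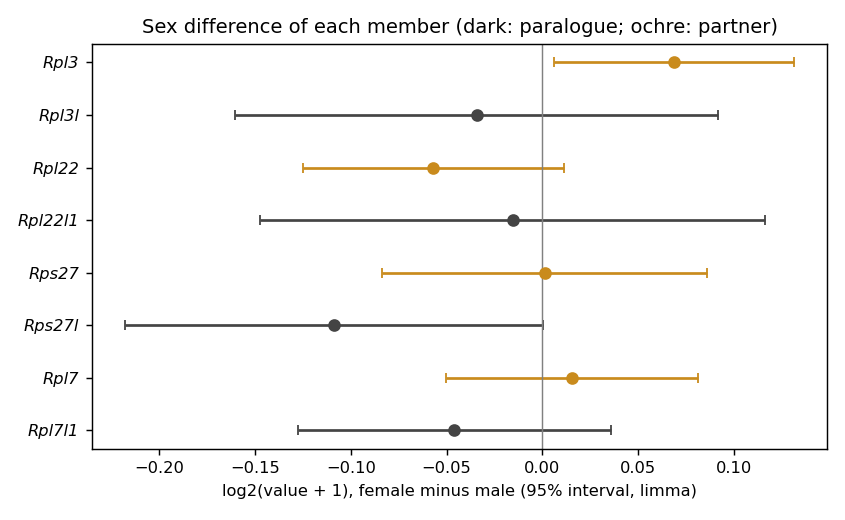
Log2 difference of each member, female minus male, on the log2(value + 1) scale with its 95% interval from limma (horizontal axis); paralogues are dark and partners ochre. The Rpl3 interval alone lies above 0, and its adjusted p is 0.271.

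Paralogues were more variable between hearts than their partners in each of the 4 pairs. Over the 8 hearts the coefficient of variation was 6.59% for Rpl3l and 3.06% for Rpl3, and 6.71% for Rps27l and 3.73% for Rps27. It was 6.07% for Rpl22l1 and 3.14% for Rpl22, and 3.58% for Rpl7l1 and 2.17% for Rpl7. Counting error alone would give 0.807% for Rpl3l, 3.11% for Rpl22l1, 2.13% for Rps27l and 1.89% for Rpl7l1. For the 3 last pairs the paralogue also had far fewer reads. Among the 496 genes within 1.5 times the level of Rpl3l, the median was 4.02%, and 80.4% of those genes varied less than Rpl3l. Among genes of their own level, this percentage was 79.6% for Rps27l, 59.6% for Rpl22l1 and 37.1% for Rpl7l1. Rpl7l1 thus varied less than the median gene of its level (3.58% against 4.17%). For the partners it was 29.3% for Rpl3, 31.7% for Rpl22, 46.5% for Rps27 and 7.66% (of 483 genes) for Rpl7. No test of these differences in variation was run.

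Levels of Rpl3 and Rpl3l had a negative correlation over the hearts that did not pass its test. Over 8 hearts the log2 levels of Rpl3 and Rpl3l had Pearson r = -0.51 (exact permutation p = 0.194, n = 8) and Spearman rho = -0.69 (exact permutation p = 0.0694). Adjusted over the 4 pairs, the exact permutation p was 0.677 and 0.278. Without the 2 hearts farthest from the median of Rpl3, female replicate 4 and male replicate 3, r was -0.59, and after centring within each sex it was -0.63. Both genes were scaled by the same size factor in a heart. The other pairs had r of 0.40 (Rps27), 0.25 (Rpl22) and -0.11 (Rpl7), and rho of 0.38, 0.17 and 0.10, with exact permutation p from 0.339 to 0.84 (n = 8, adjusted p from 0.677 to 0.84). Without the 2 farthest hearts these r became -0.21, 0.64 and 0.42.

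The 2 hearts with most Rpl3l also stood out in cell type markers. The 10 cardiomyocyte markers (Myh6, Tnnt2, Ryr2 and others) were all measured, and summed to 4.59e+06 to 5.02e+06 normalized reads in females and 4.43e+06 to 4.81e+06 in males. Myh6 alone held a mean of 2.24e+06 of a mean sum of 4.70e+06, so the sum mostly follows Myh6. Myh6 and Ryr2 were higher in male replicate 5 than in male replicate 4, but Actc1, Myl3, Tnni3 and Myl2 were lower. Female replicate 3 had 107% and male replicate 5 had 102% of the mean marker sum of the 8 hearts, the highest of each sex; their Rpl3l was at 109% and 111% of its mean. In the same hearts the 8 fibroblast markers summed to 89.5% and 96.0% of their mean, and the 8 endothelial markers to 95.1% and 96.5%, the lowest of each sex in both lists. The 8 macrophage markers were at 79.9% and 101%, also the lowest of each sex. Between the sexes, where 0.475% of all genes were called higher and 0.687% lower in females, 3 of 8 macrophage markers fell in females (Csf1r, C1qa and C1qb). All 8 macrophage differences were negative, and their sums did not overlap (13986 to 16504 in females, 17631 to 21032 in males). Of 10 cardiomyocyte markers 1 rose (Ryr2) and 9 did not pass, with 5 of the 10 differences negative. Of 8 fibroblast markers 1 rose (Lum) and 7 did not pass, with 3 of the 8 negative. The calls of Csf1r, C1qa, C1qb and Ryr2 ended in 6, 7, 7 and 7 of the 8 fits without 1 heart. Rpl3l divided by the cardiomyocyte marker sum of its heart varied by 4.74% (coefficient of variation), against 6.59% for Rpl3l itself. It was 97.3% of the overall mean in females and 103% in males (log2 difference -0.08, exact permutation p = 0.114, n = 4 each). The part of cell makeup in the Rpl3l levels was not tested further.

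Markers of skeletal muscle, the other tissue in which Rpl3l is made, were present in all hearts. The 9 measured markers of 12 summed to 4611 to 5720 normalized reads in females and 5202 to 6759 in males, most of them from Myl1 (2333 ± 320 in females, 3336 ± 502 in males) and Mybpc2 (1813 ± 258 and 1578 ± 189). Their sum was at 88.4% of its mean in female replicate 3 and at 110% in male replicate 5, and their part in the Rpl3l levels was not tested. Myh1, Myh2 and Myh4, the defining fast myosin genes, had no row among those analysed here. Pvalb (35.2 ± 11.3) and Tnnt3 (163 ± 56.3) had few reads. Myl1 did not overlap between the sexes (log2 difference -0.51, limma adjusted p = 0.127), where 9.35% of all genes had no overlap. In this list limma, edgeR and limma-voom called 0. DESeq2 called 1 of the 7 it gave an adjusted p, where it called 4.9% of all such genes. Marker sums of the other lists overlapped between the sexes: lymphocyte, erythroid, smooth muscle and pericyte, and adipocyte lists had 0 members called by limma, edgeR, DESeq2 or limma-voom, with 1, 0, 0 and 0 members at an unadjusted limma p under 0.05. Adipocyte markers stood at 267% of their mean in female replicate 1 and at 44.2% to 109% in the other hearts.

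**Figure D5:**
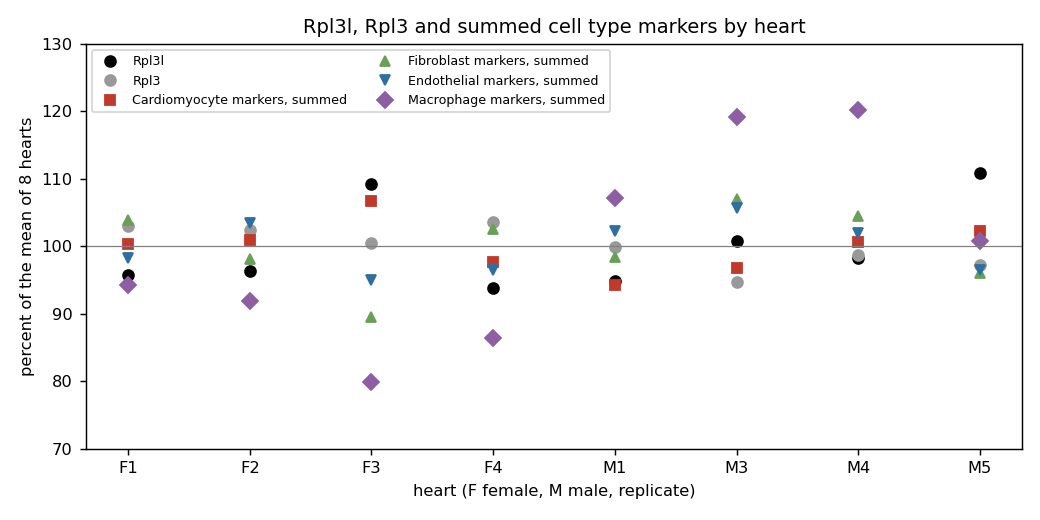
Rpl3l, Rpl3 and the summed markers of 4 cell types in each heart, as percent of the mean of the 8 hearts (vertical axis; F female, M male, with replicate number). Rpl3l and the cardiomyocyte markers are both above their means in female replicate 3 (109% and 107%) and male replicate 5 (111% and 102%), where fibroblast and endothelial markers are below theirs.

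Genes whose level moved most closely with each paralogue over the 8 hearts were named by correlation of log2 levels centred within each sex, among 9214 genes with a mean of at least 500. They are a description over 8 hearts that share their size factors, with no test. For Rpl3l they were Kdm2b (r = 0.996), Dpysl4 (0.98), Gtf2a2 (0.98), Tesc (0.97) and Vegfb (0.97). Kdm2b encodes a histone demethylase and Vegfb a vascular growth factor made in heart muscle. Dpysl4 shared the raised values of female replicate 3 (769) and male replicate 5, where the other hearts ran from 613 to 664. Rpl22l1 was closest to Msra (0.98) and to the mitochondrial outer membrane channel genes Vdac1 (0.98) and Vdac3 (0.97). Rps27l was closest to Ndufb7 (0.97), a complex I subunit gene, Slc39a13 (0.96) and Mrpl41 (0.96), a mitochondrial ribosomal protein gene. Rpl7l1 was closest to Cetn3 (0.97), Nudt2 (0.96) and Zgpat (0.95).

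Other genes of the ribosome did not pass the test between the sexes either. Of 43 large subunit protein genes 0 were called by limma, edgeR, DESeq2 or limma-voom, 2 had an unadjusted limma p under 0.05, and the median log2 difference was 0.01, against 0.0023 over all genes. Of 32 small subunit protein genes 0 were called by any of these, 1 had an unadjusted p under 0.05, and the median was 0.01. Over all genes limma called 1.16%, and 16.0% had an unadjusted limma p under 0.05. At the limma share, 0 calls in lists this short differ little from all genes. The smallest limma p among them belonged to Rpl10 (14850 ± 236 in females, 13852 ± 609 in males, log2 difference 0.10, limma adjusted p = 0.176) and Rps21 (0.08, limma adjusted p = 0.289). Of 38 assembly factors of the large subunit 0 were called by limma, edgeR and limma-voom and 1 (Gnl3l) by DESeq2, which called 4.9% of the 14088 genes it gave an adjusted p. The median was 0.01, and 4 of the 38 had an unadjusted limma p under 0.05, where 16.0% of all genes did. Gnl3l, a nucleolar GTPase gene, had 2886 ± 40.6 in females and 2662 ± 43.2 in males (log2 difference 0.12, limma adjusted p = 0.0899).

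Targets of p53 were followed because Rps27l is one. Of 32 genes 1 fell and 31 did not pass, where 0.687% of all genes were called lower. The median log2 difference was -0.04, against 0.0023 over all genes. Of the 32, 4 had an unadjusted limma p under 0.05, where 16.0% of all genes did. Ccng1, which encodes cyclin G, fell by 0.16 on the log2 scale in females (limma adjusted p = 0.0374), with means of 48297 ± 1142 there and 53788 ± 1395 in male hearts. Leaving out single hearts ended the call 5 times of 8; it held when the heart left out was female replicate 3 or male replicate 1 or 5. Rrm2b had a log2 difference of 0.13 and Plk2 of -0.17, and neither passed (limma adjusted p = 0.145 and 0.151).

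Other pairs of ribosomal protein genes gave no difference past the test. Rpl36a and Rpl36al had 4113 ± 74.4 and 3474 ± 108 normalized reads over the 8 hearts (SD, n = 8), with log2 differences of 0.02 and -0.0042. Rps4x had 17469 ± 383 and Rps4l 1145 ± 211. Rps4l, annotated as a transcribed processed pseudogene, ran from 938 to 1146 in females and from 1051 to 1512 in males, highest in male replicates 3 and 4 as Rps27l was (log2 difference -0.30, SE 0.13, limma adjusted p = 0.309). Rpl10l, Rpl39l and Rpl26l1 were not analysed here. Gene pairs listed as switching in heart muscle during maturation were set beside Rpl3l. Whole hearts were used, so reads from atria and ventricles were not told apart. Myl2 had 323595 ± 13297 normalized reads and Myl7 25990 ± 3742. Myh6, the adult mouse ventricular myosin, had 2.24e+06 ± 1.37e+05 and Myh7, its fetal counterpart, 30023 ± 3203. Tnni3, the cardiac troponin I gene, had 212126 ± 11239 and Tnni1, the slow skeletal form of early hearts, 98.1 ± 29.1. Eef1a2, the muscle and nerve form of the elongation factor, had 87551 ± 2875 and the general form Eef1a1 52630 ± 2821. In reads, the muscle form was here too above its partner. Length and sequence shared with other genes were not taken into account for this pair.

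The reads assigned to genes numbered 51.7 M to 75.7 M in a heart; the labels speak of over 80 M. Each member had at least 762 reads in every heart, and Rpl3l had 11933 to 18148. Female replicate 4 and male replicate 5 were the smallest libraries. The labelled sex matched the Y-linked gene Ddx3y in all 8 hearts, at 4.85 to 82.8 in females and 5715 to 6111 in males. The female value of 82.8 was that of female replicate 4. That heart was also the highest female in the Y-linked genes Eif2s3y (52.4), Uty (23.1) and Kdm5d (15.8). The cause was not tested.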

How the data were processed

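RNA from 8 single hearts was sequenced. Each heart has a signal column in the deposited table; its values are reads scaled by the authors with a size factor of that heart. The deposited table also holds the authors' own log2 fold change with unadjusted and adjusted p-values. The build was mm10 per the submitters' processing notes; aligner, counter, strandedness and filtering are not given in the sources used. All values (100%, tolerance 0.001 reads) were whole multiples of 1 read, so whole reads were recovered. Genes had at least 81 reads over the 8 hearts.

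The main test was limma 3.58.1 (trend, robust) in R 4.3.3, applied to log2(value + 1) for female minus male, without covariate, with a filter of a value of at least 1 in 4 hearts. Shares and ratios were tested by two-sided exact permutation. Alternatives were edgeR 4.0.16, DESeq2 1.42.0 and limma-voom on recovered reads, other pseudocounts and filters, each heart left out, blocks by replicate number, and a total reads covariate. Added once the data had been seen were shares per transcript or coding length and Rpl3l per cardiomyocyte marker sum. Members, lists and the rule for named genes (all members; the closest genes by correlation; up to 4 genes of smallest p per list) were chosen with earlier results of these data known. Over all genes edgeR called 214 on recovered reads and limma 208. Within a sex, pairs of hearts differed by 8.34 to 18.8 times sampling noise (chi-square per degree of freedom), so each heart counted once. Nothing but the sample titles says that hearts came from separate animals; p-values measure the spread between these samples. Gene positions, lengths and sequences came from GENCODE vM21.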

Additional observations from a re-analysis of the deposited data

Results flagged for a closer look

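Rpl3l was raised in 1 of the 4 female hearts. Female replicate 3 had a normalized read count of 16929, and its gap to the next female heart (14930) was 0.835 of the whole female range, above Dixon's 95% critical value for 4 samples. Levels and shares of the members gave 24 such group checks, and chance flags about 1 in 20. The Rpl3l share of that heart was 63.0%. Without that heart the sex difference in share went from -1.70 to -2.66 percentage points (exact permutation p = 0.0571), which did not pass.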

How the results depend on the processing

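None of the 8 members was called under any of the 19 alternatives run for all of them. Of 15 alternatives for the shares, those with a replicate block could not pass, since exact permutation p cannot go below 0.25 there. Without 1 heart a p under 0.05 was possible, but 0 of the 4 shares passed. The smallest exact permutation p was 0.0571, for Rpl3l without female replicate 3. Another 5 only rescaled the same reads of the same hearts, and recovered reads gave the main values again. They therefore add little to the main test, and 0 of the 4 shares passed under them. The numbers of called genes over the whole table, 85 higher and 123 lower in females, moved more: 305 and 385 with DESeq2, 30 to 239 and 47 to 277 when 1 heart was left out (lowest without female replicate 2, highest without male replicate 5; over 1.5 times from the full count for at least 1 direction without any heart but female replicate 1), and 55 higher with total reads as a covariate. The cause was not tested. Without 1 heart the log2 difference ran from -0.084 to 0.010 for Rpl3l (above 0 without male replicate 5), from -0.063 to 0.039 for Rpl22l1 (above 0 without female replicate 4 or male replicate 5) and from -0.020 to 0.039 for Rps27, so these differences had no stable sign. That of Rps27 was -0.015 with total reads as a covariate. With a replicate block by title number, over 6 hearts, the log2 difference was 0.022 for Rpl3l and 0.010 for Rpl22l1; with a replicate block by library code number, also over 6 hearts, 11 genes were called higher and 17 lower. Same-numbered hearts did not deviate together in every pair (correlations of deviations 0.16, -0.15 and -0.17 for titles, 0.16, -0.15 and 0.16 for codes). By code, the male heart closest to the female one was the same-numbered one for numbers 1 and 5, but not for 3. So few pairs cannot show whether same-numbered hearts share more than a number. Without 1 heart the share differences ran from -2.66 to -0.935 points for Rpl3l, from -1.64 to -1.02 for Rps27l, from -0.716 to -0.301 for Rpl7l1 and from 0.0859 to 0.734 for Rpl22l1.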
